A study of Coturnix japonica with 24 samples.

Results

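AvBD9, AvBD10 and LEAP2 are genes of small cationic antimicrobial peptides that quail liver transcribes. They were taken by gene name from tables of expressed transcripts, and a gene's count was the sum over its transcripts. All 3 were among the 14983 genes of the liver table and all 3 passed the filter on low counts, which left 4532 genes for testing. AvBD9 and AvBD10 were also among the 15542 genes of the white adipose tissue table, and LEAP2 was not analysed in adipose tissue here. The genes were chosen for their share of liver counts and for how that share moved with day length. Their liver levels and changes are therefore given as a description, with errors and without a test.

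Avian beta-defensins are peptides held in shape by disulphide bridges, and they kill bacteria by damaging the membrane. In chicken, some of them are made mainly by bone marrow cells and heterophils (the avian counterpart of neutrophils), whereas others, AvBD8, AvBD9 and AvBD10 among them, are transcribed in liver and in epithelia of the urogenital tract. LEAP2, the liver-expressed antimicrobial peptide, has a different fold. In mammals it circulates as a hormone that blocks the ghrelin receptor, and its level follows feeding.

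Male Japanese quail (Coturnix japonica) kept on 16 hours of light and 8 hours of dark were moved to 8 hours of light (8L, short days), 12 hours (12v) or 16 hours (16v, long days). Each photoperiod gave 4 liver and 4 abdominal white adipose tissue libraries, made from polyadenylated RNA as PCR-amplified cDNA and read on a Nanopore GridION. Birds of all 3 groups shared the earlier long-day housing, and the sources used here give neither the ages of the birds nor the length of each treatment. The sample titles do not say what the v in 12v and 16v stands for. The light schedule between the earlier housing and each group is therefore not read from them, and 16v is not taken as unchanged housing. The labels do not say in words that every library is a different bird, so errors and p values describe the spread between these libraries. Liver and adipose libraries of the same group and replicate carry the same label number, except 16v replicate 4 (108 in liver and 104 in adipose). Whether a shared number means the same bird is not stated, and the tissues were not paired here.

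Total counts per liver library ran from 72125 (12v replicate 3) to 867217, and those of adipose libraries from 72716 to 1389063. Levels are in CPM, the library-scaled count after trimmed mean of M values (TMM) correction. They count PCR reads without molecular identifiers, and gene lengths were not used. Levels of different genes are therefore not ranked against each other. The liver libraries carried hepatocyte transcripts: ALB (serum albumin) took 4.56% to 9.34% of their counts, and FABP4, the fatty acid binding protein of adipocytes, had 4 counts in all 12. In adipose libraries FABP4 took 1.57% to 4.72% of counts. By its ribosomal protein genes, a liver library could stand apart from the rest. A ribosomal score, the first principal component over 64 such genes, reached 6.54 (12v replicate 1), 7.79 (12v replicate 3) and 8.34 (16v replicate 1). The other 9 libraries scored -5.75 to 0.533, and the 4 from 8L scored -5.75 to -2.49. The sign of the score is arbitrary. Of the 64 genes, 49 load in 1 direction and 15 in the other, and which of these goes with a high score was not recorded. The score is therefore not read as a level of ribosomal proteins. The levels and changes of the 3 peptide genes, AvBD8 and AHSG are given with and without these 3 libraries. Ratios, nearest genes and marker sums use all 12.

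AvBD9 took a large share of the liver libraries. It held 360149 of 6861607 liver counts, or 5.25%, and was read in all 12 libraries. Its share was 3.56%, 4.88%, 4.64% and 3.81% in the 8L libraries, 2.26%, 6.93%, 1.93% and 2.83% in the 12v libraries, and 8.34%, 7.51%, 3.28% and 7.66% in the 16v libraries. The share is of counts summed over transcripts: ALB has 5 transcripts in the table, whereas each of the 3 peptide genes has 1. With 1 transcript standing for each gene, AvBD9 took 6.78% ± 1.07 at 8L, 6.20% ± 4.28 at 12v and 11.9% ± 3.93 at 16v (SD, n = 4 each). Even in the shallowest library, 12v replicate 3, its share of 1.93% rested on 1391 reads and had a 95% exact binomial interval of 1.83% to 2.03%, which covers counting error only.

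The level of AvBD9 did not separate the photoperiods. It was 41609, 56855, 56805 and 38020 CPM in the 8L libraries, 20225, 68938, 15010 and 30683 CPM in the 12v libraries, and 84172, 67166, 28802 and 77305 CPM in the 16v libraries. The 3 groups overlapped: 12v replicate 2 lay above every 8L library, and 16v replicate 3 lay below every one. Group means were 48322 ± 9933 CPM at 8L, 33714 ± 24370 at 12v and 64361 ± 24714 at 16v (SD, n = 4 each). The log2 change was -0.52 ± 0.51 (SE) at 12v against 8L, 0.41 ± 0.51 at 16v against 8L and 0.93 ± 0.51 at 16v against 12v. The spread was wider in both longer photoperiods than at 8L. Without the 3 libraries that stand apart the means were 48322 ± 9933 CPM at 8L (n = 4), 49811 ± 27050 at 12v (n = 2) and 57758 ± 25584 at 16v (n = 3). The log2 change at 12v against 8L was then 0.12, with its sign turned.

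AvBD10, a second defensin of the same family, was lower in every 12v and 16v library than in any 8L library. Its level was 2691, 3547, 2734 and 3160 CPM in the 8L libraries, 96.8, 1534, 86.3 and 1617 CPM in the 12v libraries, and 388, 419, 578 and 623 CPM in the 16v libraries. At 12v the libraries fell into a low pair and a high pair, while the 16v libraries lay close together between these pairs. The lower pair at 12v were replicates 1 and 3, which are also the 12v libraries set apart by ribosomal protein genes. The lower pair rested on 34 and 8 reads, against 1055 and 957 reads in the other 12v libraries.

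AvBD10 averaged 833 ± 857 CPM at 12v against 3033 ± 403 at 8L (SD, n = 4 each), a log2 change of -1.85 ± 0.77 (SE) and 3.60-fold lower. At 16v it averaged 502 ± 116 CPM against 3033 ± 403 at 8L, a log2 change of -2.59 ± 0.79 and 6.04-fold lower. Between 16v and 12v the groups overlapped, with a log2 change of -0.74 ± 0.75. Without the 3 libraries that stand apart, AvBD10 averaged 3033 ± 403 CPM at 8L (n = 4), 1575 ± 58.8 at 12v (n = 2) and 540 ± 107 at 16v (n = 3), so that the 3 groups no longer overlapped. With so few libraries, 1.32% of all tested genes lay in the same falling order without overlap, and nothing is read from this. The log2 changes were then -0.88 at 12v against 8L, -2.43 at 16v against 8L and -1.55 at 16v against 12v. With the ribosomal score added to the model they were -1.18, -1.12 and 0.05. The score was -5.75 to -2.49 in 8L libraries and -0.969 to 8.34 in 16v libraries. Score and photoperiod therefore cannot be fully told apart in that fit.

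LEAP2, a hepatic peptide with antimicrobial activity and, in mammals, a ghrelin receptor antagonist, was also lower in every 12v and 16v library than in any 8L library. Its level was 332, 610, 573 and 312 CPM in the 8L libraries, 31.3, 154, 21.6 and 113 CPM in the 12v libraries, and 26.3, 68.4, 45.6 and 31.4 CPM in the 16v libraries. The 12v libraries split as for AvBD10, with replicates 1 and 3 low and replicates 2 and 4 high, but the gap was narrower. These levels rested on 149 to 276 reads per library at 8L, 2 to 106 at 12v and 12 to 62 at 16v. The lowest, 12v replicate 3, had 2 reads (95% exact Poisson interval 0.242 to 7.22), so its level is poorly known.

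LEAP2 averaged 80.0 ± 64.2 CPM at 12v against 457 ± 156 at 8L (SD, n = 4 each), a log2 change of -2.43 ± 0.57 (SE) and 5.39-fold lower. At 16v it averaged 42.9 ± 18.8 CPM against 457 ± 156 at 8L, a log2 change of -3.39 ± 0.59 and 10.5-fold lower. The 16v and 12v groups overlapped, with a log2 change of -0.96 ± 0.56. Without the 3 libraries that stand apart, the means were 457 ± 156 CPM at 8L (n = 4), 134 ± 28.9 at 12v (n = 2) and 48.5 ± 18.7 at 16v (n = 3), and the 3 groups did not overlap, as for 1.32% of all tested genes. The log2 changes were then -1.70 at 12v against 8L, -3.16 at 16v against 8L and -1.46 at 16v against 12v. With the ribosomal score added to the model they were -1.60, -2.32 and -0.73, with the same limit as for AvBD10.

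**Figure D1:**
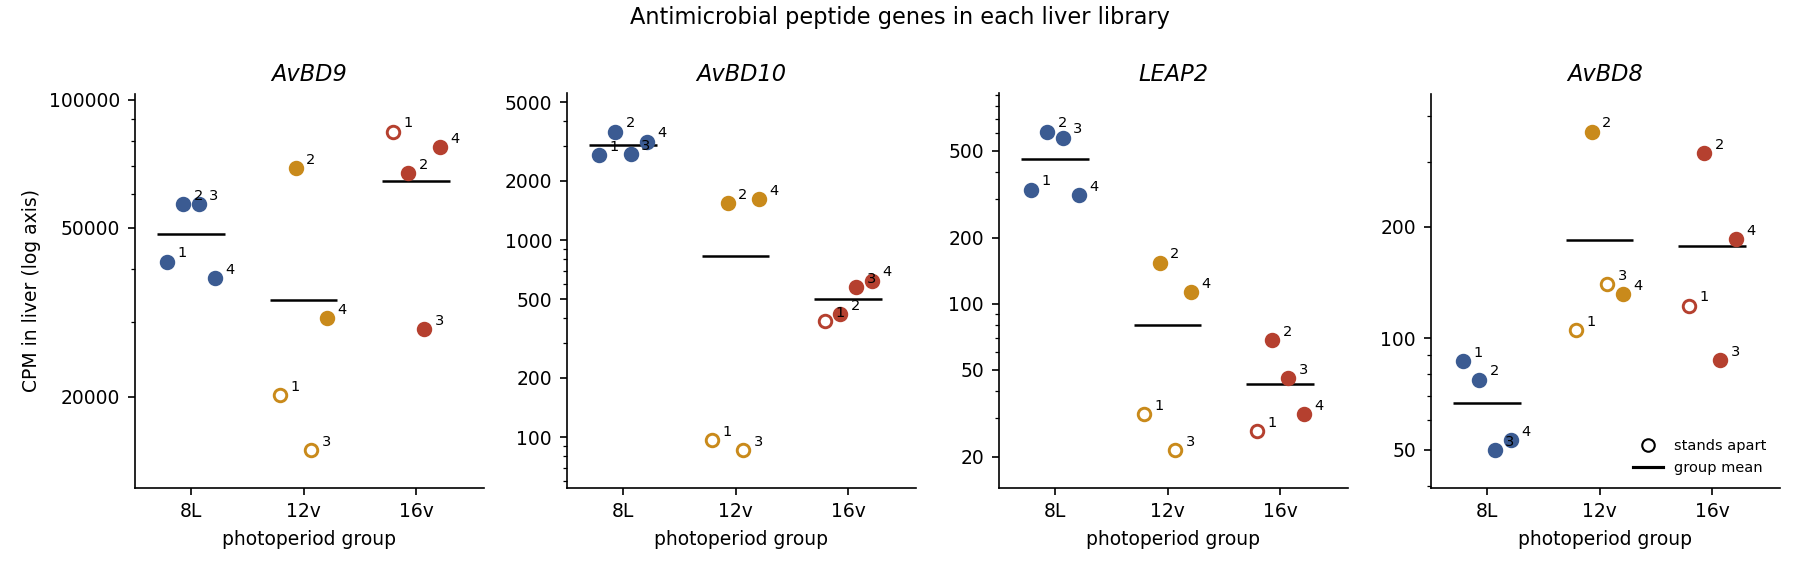
Level of AvBD9, AvBD10, LEAP2 and AvBD8 in each liver library (CPM, log axis) by photoperiod group. Points are libraries numbered by replicate, open circles mark the 3 libraries set apart by ribosomal protein genes, and bars are group means; AvBD10 and LEAP2 lie lower in all 12v and 16v libraries than in any 8L library, AvBD8 lies higher, and AvBD9 overlaps.

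Thus AvBD10 and LEAP2, 2 of the 3 genes, did not overlap with 8L in either longer photoperiod. Among all 4532 tested genes, 7.02% lay lower without overlap at 12v against 8L and 11.7% at 16v against 8L. Since the genes were chosen on these contrasts, nothing is read from this. Both comparisons use the same 8L libraries. For 16v against 12v, where none of the 3 separated, 0.485% of genes lay lower and 1.74% higher without overlap. In bulk tissue, fewer cells that transcribe a gene and less RNA per cell cannot be told apart.

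Ratios of counts within a library do not depend on how libraries are scaled to each other. They are given per 1000 counts of the second gene. Since they count PCR reads without molecular identifiers, they are not ratios of molecules. LEAP2 had 7.98, 10.7, 10.1 and 8.21 counts per 1000 AvBD9 counts in the 8L libraries, 1.55, 2.24, 1.44 and 3.69 in the 12v libraries, and 0.312, 1.02, 1.58 and 0.406 in the 16v libraries. Both longer photoperiods lay wholly below 8L in this ratio, and 16v replicate 3 alone of its group overlapped with 12v. The genes were chosen for their changes in these same counts, and no share over all genes was taken for ratios. Non-overlap in the ratios is therefore a description, and nothing more is read from it. The means were 9.25 ± 1.36 at 8L, 2.23 ± 1.04 at 12v and 0.830 ± 0.592 at 16v (SD, n = 4 each).

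AvBD10 had 64.7, 62.4, 48.1 and 83.1 counts per 1000 AvBD9 counts in the 8L libraries, 4.79, 22.2, 5.75 and 52.7 in the 12v libraries, and 4.61, 6.24, 20.1 and 8.05 in the 16v libraries. Here 12v replicate 4 fell within the range of 8L, whereas no 16v library did. LEAP2 per 1000 AvBD10 counts averaged 151 ± 49.5 at 8L, 186 ± 121 at 12v and 90.1 ± 50.1 at 16v, and the groups overlapped.

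Against ALB, the transcript of the main plasma protein, AvBD9 was steady at 8L and spread widely on longer days. It had 523 to 606 counts per 1000 ALB counts in the 8L libraries, 265 to 790 in the 12v libraries and 352 to 1832 in the 16v libraries. LEAP2 averaged 5.15 ± 0.675 counts per 1000 ALB counts at 8L, 0.993 ± 0.600 at 12v and 0.614 ± 0.258 at 16v. AvBD10 averaged 36.3 ± 9.86 at 8L, 9.34 ± 8.69 at 12v and 7.13 ± 1.01 at 16v. Both lay lower in every 12v and 16v library than in any 8L library on this scale, with the same limit as for the other ratios. ALB itself averaged 87171 ± 20882 CPM at 8L, 72311 ± 25859 at 12v and 71621 ± 18667 at 16v.

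**Figure D2:**
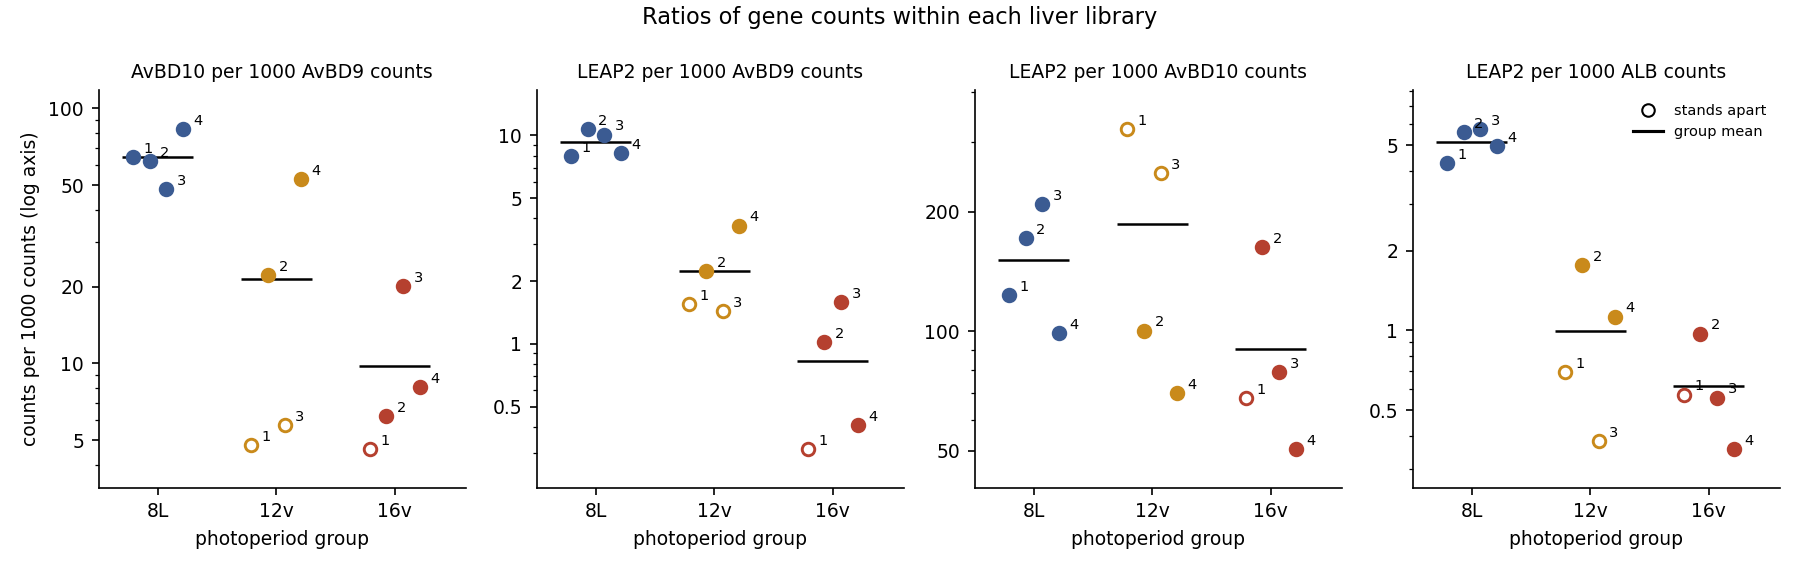
Ratios of gene counts within each liver library (counts per 1000 counts of the second gene, log axis) by photoperiod group, with libraries numbered by replicate, open circles for the 3 libraries set apart and bars for group means. LEAP2 per AvBD9 and per ALB is lower in every 12v and 16v library than at 8L, while LEAP2 per AvBD10 overlaps between the groups.

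In white adipose tissue the defensins were close to absent. AvBD9 had 17 of 8805781 counts, or 0.000193%, spread over 6 of 12 libraries, against 5.25% of liver counts. The 8L libraries had 1, 2, 0 and 0 counts, the 12v libraries 0, 1, 1 and 0, and the 16v libraries 0, 3, 0 and 9. AvBD10 had 3 counts in 3 of the 12 adipose libraries. ALB in the same tissue had 20, 13, 0 and 1 counts in the 8L libraries, 0, 7, 5 and 5 in the 12v libraries, and 1, 43, 1 and 36 in the 16v libraries. The 2 adipose libraries with the most AvBD9 counts, 16v replicates 2 and 4, were also those with the most ALB. They also had the most TTR (transthyretin, another liver product, with 10 and 7 counts), and FGB (fibrinogen beta chain) had 1 count in each. APOH, another hepatocyte marker, had 0 counts in both. APOA1 had 894 and 4289 counts in these libraries and 569 to 15313 over all adipose libraries, so it does not tell liver reads apart here. These are raw counts, not corrected for depth. With 72716 counts, 16v replicate 2 is the shallowest adipose library. Whether these reads come from adipose cells was not tested. At such counts no comparison between photoperiods was made in adipose tissue.

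Of 16 other defensin names listed, which include DEFB1, DEFB4A and the ovodefensins OVODA1 and OVODB1, 5 had counts in liver, all of them avian beta-defensins. AvBD6, AvBD7 and AvBD11 had 4, 5 and 2 counts over all 12 libraries. AvBD13 had 161 counts and averaged 15.4 ± 7.11 CPM at 8L, 16.0 ± 13 at 12v and 27.8 ± 16.1 at 16v. Its log2 change was 0.25 ± 0.75 (SE) at 12v and 0.87 ± 0.73 at 16v against 8L (edgeR quasi-likelihood test, adjusted p = 0.892 and 0.522), which is within the spread between libraries. Without the 3 libraries that stand apart these changes were 0.84 and 1.27.

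AvBD8, with 1081 counts, lay on the other side of 8L from AvBD10. Its level was 86.9, 77.3, 50.004 and 53.0 CPM in the 8L libraries, 105, 362, 140 and 132 CPM in the 12v libraries, and 123, 317, 87.3 and 185 CPM in the 16v libraries. Every 12v and 16v library lay above every 8L library, the closest being 16v replicate 3. AvBD8 averaged 185 ± 119 CPM at 12v against 66.8 ± 18.1 at 8L (SD, n = 4 each), a log2 change of 1.48 ± 0.51 (edgeR, adjusted p = 0.178). At 16v it averaged 178 ± 101 against 66.8 ± 18.1 CPM at 8L, a log2 change of 1.42 ± 0.50 (edgeR, adjusted p = 0.138). Neither passed the threshold of an adjusted p under 0.05 over all genes. Without the 3 libraries that stand apart, AvBD8 averaged 247 ± 163 CPM at 12v (n = 2) and 196 ± 115 at 16v (n = 3), against 66.8 ± 18.1 at 8L (n = 4), with log2 changes of 1.96 and 1.62 against 8L (edgeR, adjusted p = 0.294 and 0.130). Non-overlap in the higher direction was seen in 5.41% of tested genes at 12v and 9.89% at 16v. Per 1000 AvBD9 counts, AvBD8 had 1.43 ± 0.497 at 8L, 6.03 ± 2.26 at 12v and 2.90 ± 1.37 at 16v.

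The 6 lists of genes around these peptides, which held 165 names, were read in the same fit of all 12 liver libraries: other defensins, other antimicrobial proteins, acute phase proteins, pattern recognition and NF-kB signalling, the ghrelin and growth hormone axis, and hepatocyte transcription factors. Of these, 104 had counts and 52 could be tested. At 12v against 8L, 0 passed, where 0.331% of all tested genes did. An unadjusted p under 0.05 was found for 10 of the 52, where 18.3% of all genes had one, and DESeq2 called 3, where it called 8.05% of all genes. At 16v against 8L, 1 passed, where 0.794% of all genes did, with 10 at an unadjusted p under 0.05 (21.2% of all genes) and 5 called by DESeq2 (12.0% of all genes). At 16v against 12v, 0 passed, where 0.0221% of all genes did, with 1 at an unadjusted p under 0.05 (2.01% of all genes) and 0 called by DESeq2 (0.0662% of all genes). The median log2 change over all tested genes was -0.08 at 12v and 0.07 at 16v against 8L. A gene of few counts could pass the filter through the group in which it was high, so no direction is read from the counts and medians of these lists.

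The gene that passed was AHSG, which encodes fetuin-A, a plasma glycoprotein that falls in the acute phase in mammals. AHSG fell to 462 ± 128 CPM at 16v, against 2129 ± 762 at 8L (SD, n = 4 each), a log2 change of -2.20 ± 0.40 (SE; edgeR, adjusted p = 0.0255). The call was lost when any single 16v library, 8L replicate 2, 3 or 4, or 12v replicate 2 was left out (adjusted p 0.0509 to 0.118), and the log2 change then stayed between -2.40 and -2.00. It was also lost with the ribosomal score in the model (adjusted p = 0.0690), and held without the 3 libraries that stand apart (log2 -2.02, adjusted p = 0.0382). Of 16 tested acute phase genes, 3 lay above 0 and 13 below at 12v against 8L (median log2 -0.39), and 9 lay above and 7 below at 16v against 8L (median 0.17). FGB, the fibrinogen beta chain, averaged 2925 ± 1371 CPM at 16v against 1127 ± 297 at 8L (edgeR, adjusted p = 0.109). AMBP, the precursor of alpha-1-microglobulin and bikunin, averaged 257 ± 128 CPM at 16v against 1193 ± 262 at 8L (edgeR, adjusted p = 0.127).

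The other antimicrobial proteins had 8 tested members, 7 of them below 0 at 12v against 8L and 6 at 16v against 8L, with medians of -1.44 and -1.14. None passed the test, and RNASE6 and RSFR had the same mean and SD at 12v (5.80 ± 9.75 CPM). AVDL, an avidin-like protein, averaged 4.95 ± 8.08 CPM at 12v against 48.4 ± 17.9 at 8L (edgeR, adjusted p = 0.166) and 6.66 ± 5.32 CPM at 16v against 48.4 ± 17.9 at 8L (edgeR, adjusted p = 0.125). With few counts at 12v and 16v, AVDL could pass the filter through 8L alone, so no direction is read from it. EXFABP, a lipocalin that binds bacterial siderophores in chicken, averaged 20.3 ± 13.3 CPM at 12v against 61.7 ± 25.4 at 8L (edgeR, adjusted p = 0.251). At 16v it averaged 27.8 ± 17.9 CPM (edgeR, adjusted p = 0.327). The member above 0 at 12v was COLEC11, at 67.5 ± 10.9 CPM against 32.8 ± 9.68 at 8L (edgeR, adjusted p = 0.281). Those above 0 at 16v were COLEC11 and MBL2, with log2 changes of 0.61 and 0.75 (edgeR, adjusted p = 0.497 and 0.802). LYZ, lysozyme, had 5 counts in liver in all. Cathelicidins and the iron hormone hepcidin (HAMP) were not analysed here.

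Of the ghrelin and growth hormone axis, in which LEAP2 acts in mammals, 7 genes could be tested, with 4 above 0 and 3 below in each comparison with 8L (medians 0.72 at 12v and 0.35 at 16v), and none passed. GHRL, ghrelin itself, had 1 count in liver, and its receptor gene GHSR was not analysed in liver here. FURIN, a protease that matures precursor proteins, averaged 138 ± 62.6 CPM at 12v against 54.4 ± 38.4 at 8L (edgeR, adjusted p = 0.232). GHR, the growth hormone receptor, averaged 29.1 ± 14.8 CPM at 16v against 42.1 ± 16.6 at 8L (edgeR, adjusted p = 0.635).

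None of 10 tested hepatocyte transcription factors passed, with medians of 0.55 at 12v and 0.16 at 16v against 8L. ATF4, which drives the amino acid and endoplasmic reticulum stress response, came closest at 20.1 ± 8.00 CPM at 16v against 119 ± 17.6 at 8L, a log2 change of -2.54 ± 0.63 (edgeR, adjusted p = 0.0642). ATF4 passed at 16v against 8L in 6 of 11 other settings, DESeq2, limma-voom and the fit without the 3 libraries that stand apart among them, and in 2 of 12 fits with 1 library left out (without 12v replicate 1 or 4). With the ribosomal score in the model its adjusted p was 0.281. HNF4A and CEBPA, which maintain hepatocyte identity, had 39 and 4 counts in all and were not tested. Of 9 pattern recognition and NF-kB genes, 4 lay above 0 and 5 below in each comparison with 8L (medians -0.17 at 12v and -0.97 at 16v) and none passed. STAT3, which carries interleukin-6 signals to acute phase genes, averaged 5.99 ± 8.24 CPM at 16v against 52.1 ± 27.6 at 8L (edgeR, adjusted p = 0.141). With few counts at 12v and 16v, STAT3 could pass the filter through 8L alone, so no direction is read from it.

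The liver genes most like each peptide gene were found by the root mean square distance of log2 CPM, centred over the 12 libraries, among 4086 tested genes with a symbol. This describes likeness over 12 libraries that share their depth and any difference in RNA. Shared high and low values follow from picking genes by this distance, so nothing more is read from them. LEAP2 was nearest to THRSP, a thyroid hormone responsive regulator of fat synthesis, at a distance of 0.48 (median over all genes 1.79), followed by RPL39L, AP2S1, YWHAE and ULK1 at 0.58 to 0.63. THRSP averaged 6693 ± 2017 CPM at 8L, 687 ± 510 at 12v and 567 ± 322 at 16v, and in each group its replicates lay in nearly the order of LEAP2. AvBD10 was nearest to AP2S1, a subunit of the clathrin adaptor, at 0.55 (median 1.84), then to MGST3, SMIM7, RPSAP58 and MRPS21 at 0.61 to 0.67. AP2S1, which stands in both sets of 5, averaged 81.9 ± 16.7 CPM at 8L, 21.7 ± 28.0 at 12v and 8.86 ± 3.90 at 16v. Several of these genes reached 0 CPM. YWHAE, ULK1 and SMIM7 did so in 12v replicates 1 and 3, and AP2S1 in 12v replicate 3. YWHAE and ULK1 were also at 0 in 16v libraries, replicate 1 among them. Their log2 values there rest on the small count added before taking logs.

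AvBD9 was nearest to DNAJC19, a mitochondrial import factor, at 0.44 (median 1.13), then to UQCR11, EBAG9, RNF7 and SMURF1 at 0.46 to 0.48. UQCR11, a subunit of respiratory complex III, averaged 1170 ± 266 CPM at 8L, 1112 ± 469 at 12v and 1520 ± 343 at 16v. All 5 lay below their own mean in 12v replicates 1 and 3, as AvBD9 did, which follows from how they were picked. In 12v replicate 3, EBAG9, RNF7 and SMURF1 were each at 10.8 CPM, the level of 1 count in that library. Between the peptide genes the distance was 0.79 for LEAP2 and AvBD10, where AvBD10 ranked 41 among 4531 genes by likeness to LEAP2. It was 1.56 for AvBD10 and AvBD9 and 1.61 for LEAP2 and AvBD9.

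**Figure D3:**
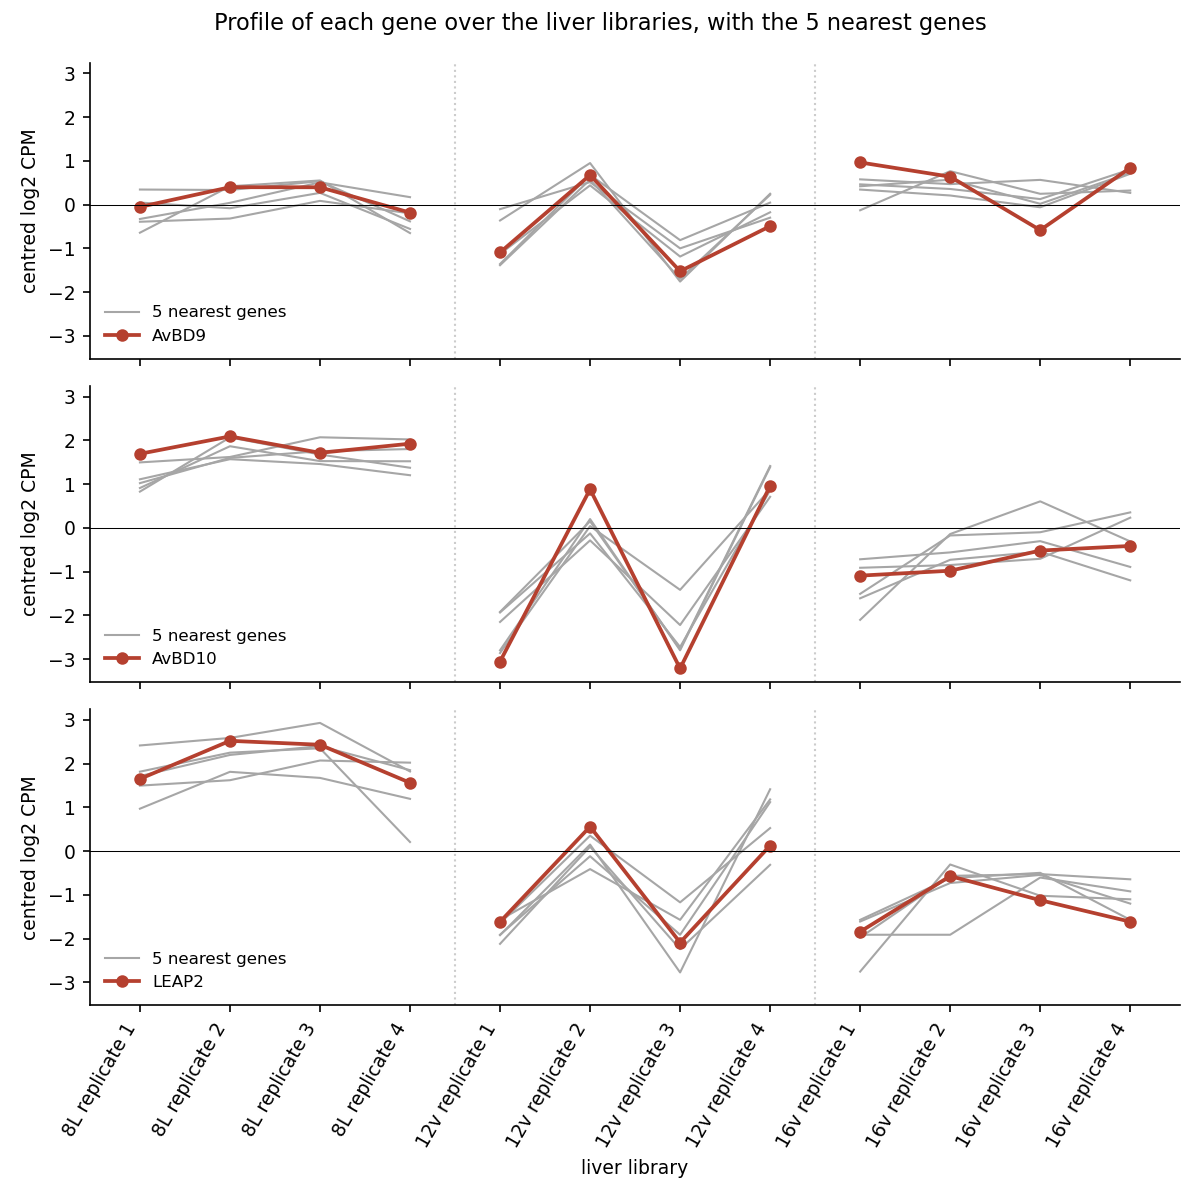
Level of each peptide gene (red) and of its 5 nearest genes (grey) over the 12 liver libraries, as log2 CPM centred over those libraries; lines join the values of 1 gene within a group and imply no order of replicates. All 3 peptide genes have low values in 12v replicates 1 and 3. AvBD10 and LEAP2 share high values at 8L, whereas AvBD9 is high in 3 of 4 16v libraries.

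Summed markers of several cell types did not overlap between 8L and a longer photoperiod. Hepatocyte markers, 15 of 16 with counts, summed to 125757 to 165456 CPM at 8L, 87433 to 147515 at 12v and 83373 to 120907 at 16v, where they lay below 8L without overlap. ALB and TTR made up most of this sum (means of 87171 and 30108 of 148430 CPM at 8L), and ALB itself overlapped between the groups. Among members that are also acute phase genes, mean levels at 16v were above 8L for the fibrinogen chains FGA, FGB and FGG. They were below 8L for ALB, TTR, TF (transferrin), AMBP and AHSG. Endothelial markers, 10 of 10 with counts, summed to 61.9 to 135 CPM at 8L, 137 to 237 at 12v and 158 to 241 at 16v, without overlap between 8L and either longer photoperiod. Of these markers, VWF and CLDN5 had 20 counts or fewer in all. Biliary markers, 5 of 9 with counts, summed to 46.8 to 176 CPM at 8L, 14.2 to 45.6 at 12v and 24.1 to 55.2 at 16v, with 12v just below 8L. Stellate cell and fibroblast markers, 10 of 10 with counts, summed to 214 to 341 CPM at 8L, 205 to 564 at 12v and 391 to 611 at 16v, where they lay above 8L without overlap. Among single tested genes, 5.41% lay higher and 7.02% lower without overlap at 12v against 8L, and 9.89% higher and 11.7% lower at 16v. No such share was taken for summed markers, so no change in cell types is read from these sums. The part of these cell types in the levels of the peptide genes was not tested.

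Markers of heterophils, macrophages, erythrocytes and adipocytes overlapped between the groups. Those of lymphocytes lay lower at 16v than at 8L without overlap. Among single tested genes 11.7% did so, but no such share was taken for summed markers, so nothing is read from this. Heterophil markers, 6 of 10 with counts and with CSF3R, LYZ, CTSG and MMP9 at 20 counts or fewer in all, summed to 6.63 to 41.5 CPM at 8L, 0 to 20.3 at 12v and 6.98 to 32.6 at 16v. Macrophage markers, 13 of 15 with counts, summed to 305 to 812 CPM at 8L, 426 to 593 at 12v and 361 to 487 at 16v. Lymphocyte markers, 11 of 13 with counts, summed to 175 to 3738 CPM at 8L, 91.1 to 245 at 12v and 83.9 to 129 at 16v, with the top value in 8L replicate 4. Of these, CD4, CD8A, CD5 and IL7R had 20 counts or fewer in all. Erythrocyte markers, 5 of 11 with counts, summed to 1186 to 5472 CPM at 8L, 1304 to 3198 at 12v and 848 to 6065 at 16v. Adipocyte markers, 8 of 10 with counts, summed to 747 to 1395 CPM at 8L, 1179 to 1430 at 12v and 872 to 1337 at 16v, with the defining FABP4, ADIPOQ and TUSC5 at 20 counts or fewer in all.

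**Figure D4:**
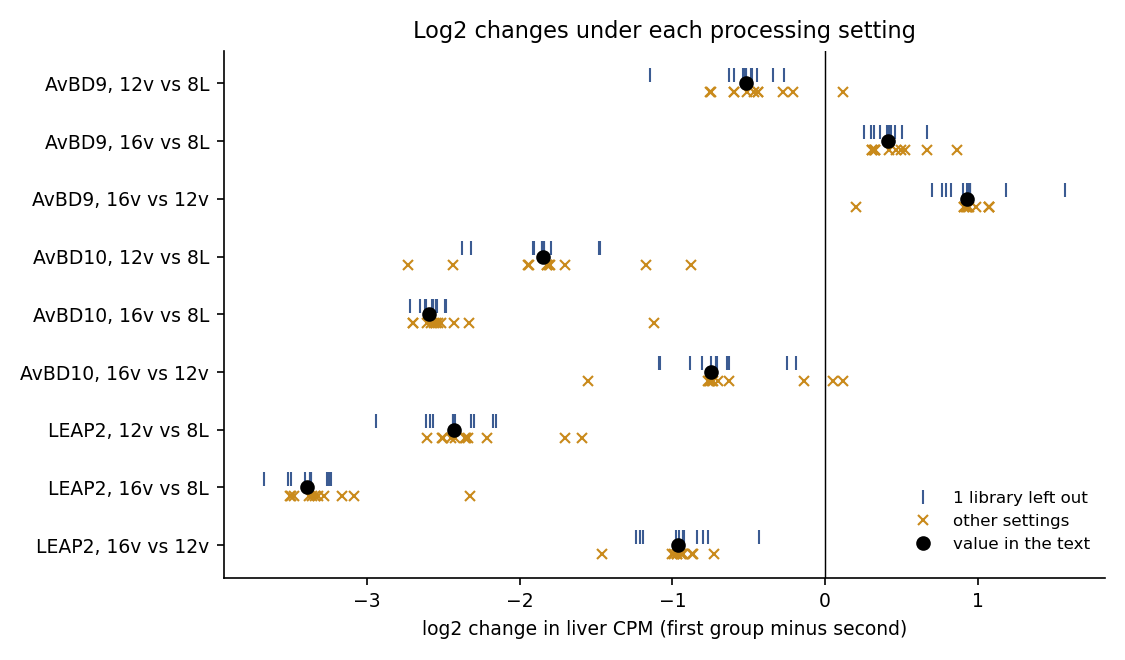
Log2 changes of AvBD9, AvBD10 and LEAP2 in liver (first group minus second) in the fit reported (black points), with 1 library left out (blue ticks) and under 11 other processing settings (orange crosses). All values of AvBD10 and LEAP2 against 8L lie below 0, from -3.68 to -0.88, whereas AvBD9 at 12v against 8L and AvBD10 at 16v against 12v have values on both sides of 0.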

How the data were processed

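Expected counts (estimated reads per transcript) for 12 liver and 12 adipose libraries were deposited by the authors, 1 table per tissue, without normalization. The submitters' processing notes name minimap2 for alignment and Salmon for quantification; their versions, the genome build and the annotation were not given in the sources used here. Liver values cover 46968 transcripts and adipose values cover 51835, and 99.49% and 99.56% of these values are whole within 1e-06. Of the transcript identifiers, 0 match the quail RefSeq table, which also lacks AvBD8, AvBD9, AvBD10, AvBD13 and LEAP2 by symbol, so gene names are those of the tables and were not checked against quail sequence. Transcript counts were rounded and summed per gene. Reads shared between related defensin genes could be split or assigned to either; this was not tested. PCR reads carry no molecular identifiers, so intervals cover counting error only.

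Liver libraries entered a single edgeR 4.0.16 quasi-likelihood fit (R 4.3.3; TMM, filterByExpr with minimum count 10 and minimum total 15, robust, 4532 genes, 9 residual degrees of freedom), with Benjamini-Hochberg adjustment over all genes and a threshold of 0.05. The procedure was tested on simulated counts with the same spread for every gene and no library set apart. That test therefore does not cover libraries that stand apart, as here. Standard errors were approximated from the F statistic. Log2 CPM for distances used a prior count of 2.

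The peptide genes, the gene and marker lists and the tests were chosen with earlier results of these data known. Genes named are the 3 peptide genes, the 5 nearest genes of each, up to 3 genes of each list past the threshold, and a set named whatever its values (other defensins, cathelicidins, HAMP, LYZ, GHRL, GHSR, MBOAT4, HNF4A, CEBPA, ALB); 1 further gene of that set is not reported here. Further list members (FGA, FGB, FGG, TF, TTR, APOA1, APOH, AMBP, AVDL, EXFABP, COLEC11, MBL2, RNASE6, RSFR, FURIN, GHR, ATF4, CREB3L3, STAT3) were named after their values were seen. Alternatives were RLE (relative log expression) scaling, raw library size, no filter, a mean of at least 20 counts, DESeq2 1.42.0, limma-voom 3.58.1, a replicate block, the 2 groups alone, 1 transcript per gene, the ribosomal protein score, and libraries left out. Figures were drawn with Python 3.11.15 and matplotlib 3.10.9.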

Additional observations from a re-analysis of the deposited data

Results flagged for a closer look

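AvBD8 in liver reached 362 CPM in 12v replicate 2, with the next highest 12v library at 140 CPM, a gap of 0.864 of the range of the group. Without that library the log2 change of AvBD8 at 12v against 8L was 0.89, against 1.48 with it. AvBD10 in adipose tissue was 1.01 CPM in 16v replicate 4, which is 1 count, with 0 counts in the other 16v adipose libraries. For normally distributed values, the gap used here sets a library apart by chance in about 1 of 20 groups. The rate for these CPM values was not tested. Gaps were looked for in every group with counts of the peptide genes, AvBD8 and AvBD13 in liver, and of AvBD9 and AvBD10 in adipose tissue. Among that many groups a flag can arise by chance, so nothing is read from the AvBD8 flag. A single count against 0 in the rest of a group always gives a gap of 1, so the AvBD10 value was flagged by construction.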

How the results depend on the processing

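Of 207 recomputed values of the peptide genes' log2 changes, 205 moved by less than the spread between replicates (1 SD). The exceptions at 16v against 8L came with the ribosomal score as covariate, AvBD10 at -1.12 and LEAP2 at -2.32. The spread is wide where replicates differ, and leaving out 1 library can shift a group mean by only part of it. Stability is therefore not read from this count. The sign turned for AvBD9 at 12v against 8L without the 3 libraries that stand apart (0.12), and for AvBD10 at 16v against 12v with limma-voom (0.12) and with the covariate (0.05); neither change exceeded the spread.

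With 1 library left out, AvBD9 ran from -1.15 (without 12v replicate 2) to -0.27 at 12v against 8L, 0.26 to 0.67 at 16v against 8L and 0.70 to 1.57 at 16v against 12v. AvBD10 ran from -2.38 to -1.48, -2.72 to -2.48 and -1.09 to -0.19 in the same comparisons, and LEAP2 from -2.94 to -2.16, -3.68 to -3.23 and -1.24 to -0.43.

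The counts of genes past the threshold depended strongly on the processing, and the cause was not tested. At 12v against 8L (15 genes) they were 68 with library size alone, 43 with no filter, 89 with a mean of at least 20 counts, 365 with DESeq2, 5 with the 2 groups alone, 141 with 1 transcript per gene, 3 with the covariate and 1 without the 3 libraries. At 16v against 8L (36 genes) they were 89 with library size alone, 132 with a mean of at least 20 counts, 546 with DESeq2, 219 with limma-voom, 307 with the 2 groups alone, 478 with 1 transcript per gene, 2 with the covariate and 125 without the 3 libraries. At 16v against 12v (1 gene) they were 3 with DESeq2, and 0 with limma-voom, the 2 groups alone, 1 transcript per gene and without the 3 libraries. With 1 library left out the counts ran from 0 to 291, 0 to 209 and 0 to 1; the highest in both comparisons with 8L came without 12v replicate 4. At 12v against 8L the count was 0 without 12v replicate 1 or 2, 2 to 6 without any one 8L library, 3 without 12v replicate 3 or 16v replicate 4, and 5 without 16v replicate 3. At 16v against 8L it was 0 without 8L replicate 2 or 3 and 16v replicate 3 or 4, 3 without 16v replicate 1 or 2, 13 to 22 without 8L replicate 1 or 4 or 12v replicate 2 (22, 13 and 15), and 93 and 73 without 12v replicates 1 and 3. Library size alone shifted the median of all genes to 0.15 and 0.33 against 8L, and 83.8% and 76.4% of calls were then higher, against 60% and 47.2% with TMM and 46.7% and 36.4% with RLE.

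For the pooled lists at 12v against 8L (0 genes) DESeq2 called 3 (AHSG, ATF4, AVDL) and leaving out 1 library 0 to 4. At 16v against 8L (1 gene) the count was 2 with a mean of at least 20 counts (AHSG, ATF4), 5 with DESeq2 (AHSG, AMBP, ATF4, AVDL, FGB), 4 with limma-voom (AHSG, ATF4, AVDL, CREB3L3), 4 with the 2 groups alone (AHSG, AMBP, ATF4, AVDL), 4 with 1 transcript per gene (AHSG, ATF4, AvBD8, FGB), 4 without the 3 libraries (AHSG, AMBP, ATF4, TTR), 0 with the covariate, and 0 to 2 with 1 library left out. At 16v against 12v it was 0 throughout. AvBD8 passed at 16v against 8L with 1 transcript per gene (adjusted p = 0.0444).

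The replicate block moved the counts to 26, 65 and 0. Deviations of same-numbered libraries were weakly correlated (-0.17 to 0.215). In the labels these libraries share only a number, and whether they share a batch cannot be told from such correlations. Under the block AvBD10 was -2.44 at 12v and -2.58 at 16v against 8L, and LEAP2 -2.61 and -3.48. The 72125 counts of 12v replicate 3 limit what can be said of LEAP2 in that library.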
